A study of Mus musculus with 12 samples.

Results

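The transcription factors that build and maintain the heart muscle lineage (Gata4, Gata6, Nkx2-5, Tbx5, Tbx20, Hand2, Mef2a, Mef2c, Mef2d and Prox1) were followed in RNA from mouse left ventricle. They were chosen by name as cardiac lineage factors, with earlier results of these data known, and make up 10 of the 17471 genes listed for the 12 libraries. All 10 passed the filter on low counts. The libraries fell into 4 groups of 3. Every mouse carried floxed Yap alleles, was 6 to 10 weeks old, received tamoxifen citrate in the diet from surgery on, and had its left ventricle taken 4 days after surgery. Cre-positive mice carried a copy of MerCreMer, a recombinase that tamoxifen activates, at the endogenous Periostin (Postn) locus, and their Cre-negative siblings had wildtype Periostin. In each genotype 1 group had the left anterior descending coronary artery tied off for good to produce a myocardial infarct (MI), and 1 group had a sham operation. Periostin is switched on in activated fibroblasts, so deletion of Yap was directed at activated fibroblasts and not at heart muscle cells, the cells best known for these factors. The labels give only a replicate number within each group, so the p-values measure the spread between these samples.

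In the embryo these factors bind DNA in combination and switch on the genes of the contractile apparatus, ion handling and natriuretic peptides. GATA factors recognise a GATA core through zinc fingers, Nkx2-5 and Prox1 carry homeodomains, Tbx5 and Tbx20 carry T-box domains, Hand2 is a basic helix-loop-helix protein, and MEF2 proteins carry a MADS box. In the adult ventricle several of them remain expressed in muscle cells, while Gata4, Gata6, Tbx20 and Hand2 are also found in cardiac fibroblasts, MEF2 proteins in many cell types, and Prox1 in lymphatic endothelium.

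A stretch just upstream of a RefSeq transcript start could be read for 7 of the 10 genes, in 10 windows of 250 bases of build GRCm38.p6. The windows of Nkx2-5, Mef2a and Mef2d, and some of Mef2c and Prox1, lie inside the span of the gene. They are upstream of a transcript start there, not of the whole gene. Each window was searched on both strands for letters that the zinc-finger factors bind (AGATAA, called the GATA letters), for the NKX2-5 letters (AAGTG), the T-box letters (GGTGTGA), the MEF2 letters (CTANNNNTAG), the letters of TEAD, the DNA-binding partner of Yap (GGAATG), and an E-box that HAND proteins can bind (CATCTG), none of which overlapped another where they matched. Of 32851 such windows, 9.99% held the GATA letters, 40.7% the NKX2-5 letters, 3.33% the T-box letters, 3.2% the MEF2 letters, 12.6% the TEAD letters and 14.4% the E-box letters. The windows printed here, with matches in capitals, are those of Prox1, the factor with the largest fall after MI, Hand2, the factor that varied most among sham hearts, and Nkx2-5 and Tbx20, of which one fell and the other did not. They lie at chr1:190170828-190171077 (minus strand), chr8:57320733-57320982 (plus strand), chr17:26841566-26841815 (minus strand) and chr9:24774304-24774553 (minus strand).
Prox1: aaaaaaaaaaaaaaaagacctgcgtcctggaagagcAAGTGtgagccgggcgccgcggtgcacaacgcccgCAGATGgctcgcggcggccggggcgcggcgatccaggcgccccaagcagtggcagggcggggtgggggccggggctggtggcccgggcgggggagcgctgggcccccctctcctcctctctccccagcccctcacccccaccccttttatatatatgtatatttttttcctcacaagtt
Hand2: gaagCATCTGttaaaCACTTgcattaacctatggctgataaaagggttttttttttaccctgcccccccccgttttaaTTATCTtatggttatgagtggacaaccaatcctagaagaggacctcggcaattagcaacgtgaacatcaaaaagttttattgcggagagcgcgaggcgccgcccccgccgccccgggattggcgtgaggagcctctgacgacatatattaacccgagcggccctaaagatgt
Nkx2-5: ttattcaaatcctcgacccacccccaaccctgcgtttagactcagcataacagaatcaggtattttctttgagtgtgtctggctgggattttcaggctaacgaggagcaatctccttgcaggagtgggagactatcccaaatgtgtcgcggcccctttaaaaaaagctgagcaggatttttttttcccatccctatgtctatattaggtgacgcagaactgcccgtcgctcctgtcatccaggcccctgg
Tbx20: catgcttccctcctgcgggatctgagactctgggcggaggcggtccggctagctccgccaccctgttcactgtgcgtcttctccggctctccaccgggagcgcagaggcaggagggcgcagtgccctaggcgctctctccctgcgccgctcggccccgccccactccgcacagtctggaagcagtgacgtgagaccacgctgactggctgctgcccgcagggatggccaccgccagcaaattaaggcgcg
The printed Prox1 window held the NKX2-5 letters and the E-box letters, and the Hand2 window held the GATA, NKX2-5 and E-box letters. The Prox1 window that is not printed, at chr1:190169516-190169765, held only the NKX2-5 letters. Over all windows the only TEAD match was in 1 of the 3 Mef2c windows. No motif of the list matched in the windows of Nkx2-5, Tbx20, Mef2a and Mef2d, which says only that these letters are not in those 250 bases.

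Each library held 10257675 to 15176286 expected counts, which are estimates by the program RSEM of the reads from each gene. Yap1, the targeted gene, was not called between genotypes at the level of the whole gene, with 114.9 ± 1.13 CPM, the count scaled to library size (SD, n = 3), in Cre-negative and 109.9 ± 10.2 CPM in Cre-positive hearts after sham, and 91.7 ± 6.24 and 92.6 ± 1.40 CPM after MI. Its libraries had 113.8 to 116.1 and 101.6 to 121.3 CPM after sham and 84.6 to 96.4 and 91.1 to 93.9 CPM after MI. Gene-level counts do not resolve the floxed exon. Postn, the locus that carries the recombinase, had 3.8 to 11.4 CPM in Cre-positive against 62.7 to 111.0 CPM in Cre-negative hearts after sham (edgeR adjusted p = 0.00227), and 603.3 to 674.4 against 1527.8 to 1729.4 CPM after MI (adjusted p = 0.202), without overlap in either surgery. Reads of Y-linked genes were present in 2 of 3 sham and 3 of 3 MI libraries of Cre-negative hearts, and in 0 of 3 and 1 of 3 of Cre-positive hearts, so sex and genotype were not balanced. With a term for Y-linked reads in the fit, 7 and 6 factors were called after MI in the 2 genotypes, the same counts as without it. That check concerns MI against sham within each genotype, not the comparison of genotypes, where sex was unbalanced. All 20 cardiomyocyte markers were measured, and their summed level was 143635 to 186270 CPM in sham and 65907 to 111468 CPM in MI libraries. After MI, the summed level of 10 myofibroblast markers was 3142 to 3573 CPM in Cre-negative and 1861 to 2209 CPM in Cre-positive hearts, against 110.8 to 286 CPM in sham hearts. In whole ventricle, fewer muscle cells and less RNA of a factor per muscle cell cannot be told apart.

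One library stood apart from the rest, and 5 of the 10 factors had their highest value there. Cre-positive sham replicate 2 gave 259.9 CPM of Hand2, 2.02 times the highest of the other 11 libraries, and 240.0 CPM of Gata6, 1.61 times the highest. Tbx20 was at 190.8 CPM (1.39 times), Mef2d at 381.2 CPM (1.2 times) and Tbx5 at 81.1 CPM (1.11 times). Over all 13678 genes tested, 21% were highest in this library and 2.27% exceeded the other libraries more than 1.5-fold. Gata4, Nkx2-5, Mef2a, Mef2c and Prox1 lay within the range of the other 11 libraries. Several genes outside the 10 were also out of range there, in both directions, chosen for mention after their values were seen. Myh7, the slow myosin heavy chain, was at 34060 CPM, where the other sham hearts had 376.6 to 2938 CPM, and Ankrd1, a stress-responsive muscle gene, at 4020 against 375.1 to 1374 CPM. The SRF cofactor Myocd was at 131.4 against 52.8 to 72.5 CPM, and the mitochondrial regulator Ppargc1a at 573.1 against 149.7 to 213.6 CPM. The natriuretic peptide genes Nppa (1231 against 332.6 to 619 CPM) and Nppb (324.8 against 101.4 to 141.5 CPM) and the T-box gene Tbx3 (43.98 against 13.27 to 20.89 CPM) were also above the other sham hearts. Below the other sham hearts were Myh6, the main myosin heavy chain of the adult ventricle (14340 against 39840 to 53140 CPM), the calcium pump gene Atp2a2 (11050 against 17300 to 22380 CPM), cardiac actin Actc1 (5431 against 10780 to 17360 CPM) and myoglobin, Mb (9200 against 14880 to 17400 CPM). Its summed level of 32 reported target genes of the factors, 92279 CPM, was the lowest of the sham libraries. Its summed macrophage markers (156.8 CPM) and myofibroblast markers (110.8 CPM) were the lowest of all libraries. The plot of this library against the others shows which factors left the common range.

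**Figure D1:**
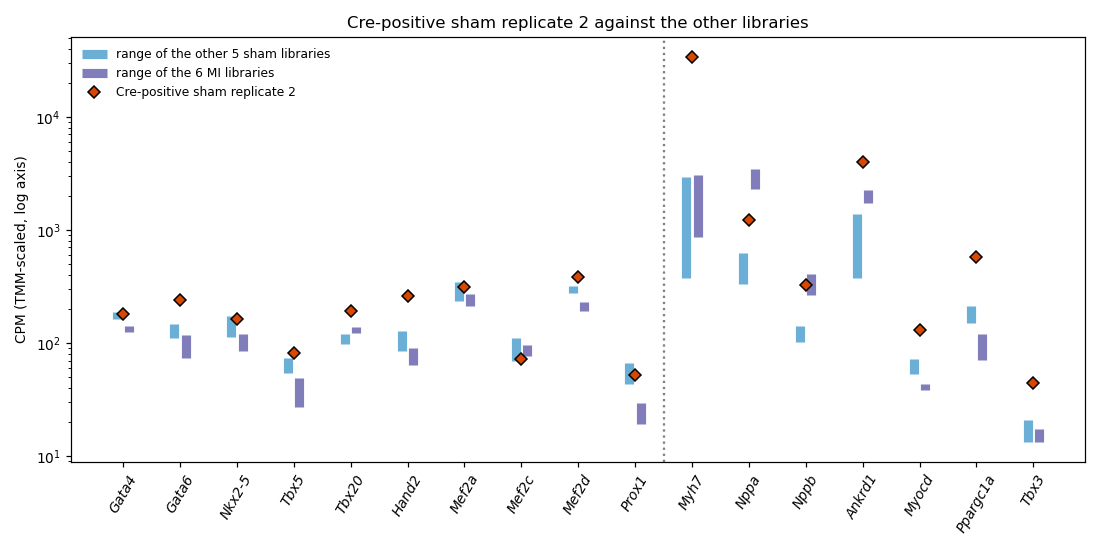
CPM (log axis) of the 10 factors and, right of the dotted line, 7 genes named for this library, in Cre-positive sham replicate 2 (diamonds), with bars for the range of the other 5 sham libraries and of the 6 MI libraries. Hand2 (259.9 CPM) and Gata6 (240.0 CPM) lie above both bars, while Gata4 and Prox1 lie within the sham range.

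Per unit of transcript length, Nkx2-5 had the highest group mean of the 10 factors in all 4 groups. Its mean was 71.4 ± 2.12 FPKM, a level per base of transcript within a library (SD, n = 3), in Cre-negative sham hearts, where its libraries did not overlap those of the next factor, Mef2a (54.5 ± 4.08 FPKM). Mef2d (50.02 FPKM), Gata4 (46.7 FPKM), Hand2 (42.2 FPKM) and Gata6 (38.5 FPKM) followed, and neighbours in this order overlapped. A gap without overlap separated Gata6 from Tbx20 (16.8 FPKM), and Mef2c (15.3 FPKM), Tbx5 (14.4 FPKM) and Prox1 (12.2 ± 1.43 FPKM) overlapped their neighbours. After MI the lower part of the order opened up. In Cre-negative MI hearts Tbx20 (22.4 FPKM), Mef2c (14.99 FPKM), Tbx5 (9.01 FPKM) and Prox1 (5.40 FPKM) followed one another without overlap. Prox1 was lowest in 3 of the 4 groups, and Mef2c (11.1 FPKM) lay just below it (11.7 FPKM) in Cre-positive sham hearts with overlapping libraries. Hand2 had rank 2 in Cre-positive sham hearts and rank 5 in the other groups. In Cre-positive sham replicate 2 Hand2 (103.65 FPKM) was above Nkx2-5 (96.69 FPKM), so these factors overlapped in that group. Without Cre-positive sham replicate 2 its mean in that group was 37.7 FPKM and its rank 6.

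**Figure D2:**
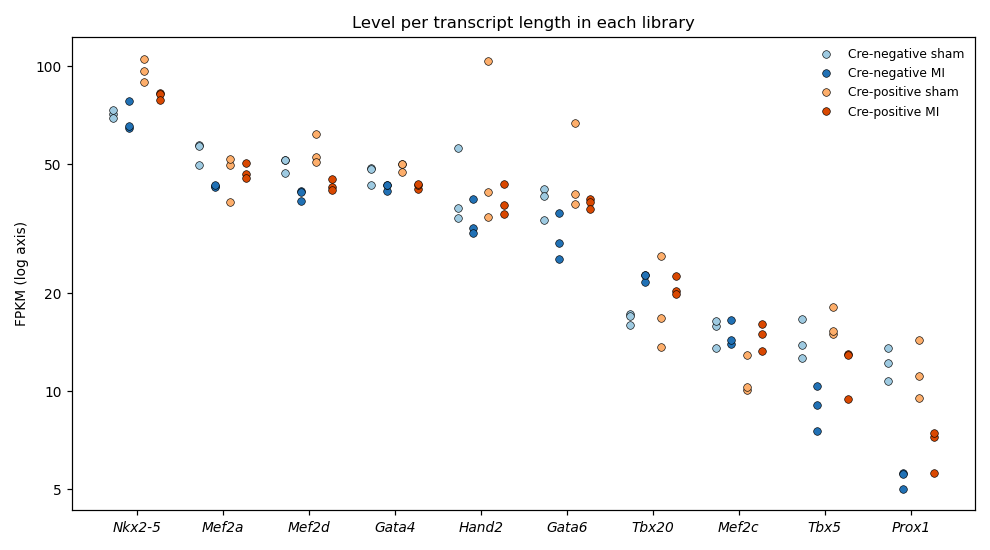
FPKM of each factor in each library (log axis), factors ordered by their mean in Cre-negative sham hearts and points coloured by group. Nkx2-5 lies highest in group means, and Tbx20, Mef2c, Tbx5 and Prox1 spread apart in Cre-negative MI hearts.

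After MI in Cre-negative hearts, 7 of the 10 factors fell and 0 rose (edgeR quasi-likelihood test, adjusted p under 0.05, called below). Of all genes tested, 24.4% were called lower, 29.9% higher and 54.3% in either direction. The median log2 difference of the factors was -0.56, beside 0.024 for all genes. Sham and MI libraries did not overlap for 9 of the 10, against 67.8% of all genes. In Cre-positive hearts 6 of the 10 fell and 0 rose, against 19.5% of all genes called lower, 25.7% higher and 45.2% in either direction. Their median was -0.53, beside 0.015 for all genes, and 6 of the 10 did not overlap, against 51.1% of genes. Gata4, Gata6, Nkx2-5, Tbx5, Mef2d and Prox1 were called in both genotypes, and Mef2a in Cre-negative hearts. Each genotype's MI libraries were compared with its own sham libraries. Scaling mattered for the smaller differences. With library totals in place of TMM factors, which raised the median gene by 0.246 (Cre-negative) and 0.229 (Cre-positive) on the log2 scale, 4 factors were called lower in Cre-negative hearts (Tbx5, Mef2a, Mef2d and Prox1), beside 13.4% of genes lower and 41.2% higher. In Cre-positive hearts that scaling called 4 lower (Nkx2-5, Tbx5, Mef2d and Prox1) and Mef2c higher, beside 8.39% of genes lower and 36.4% higher. The plot of CPM by library shows all 10 factors, and the plot of injury differences shows both genotypes.

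**Figure D3:**
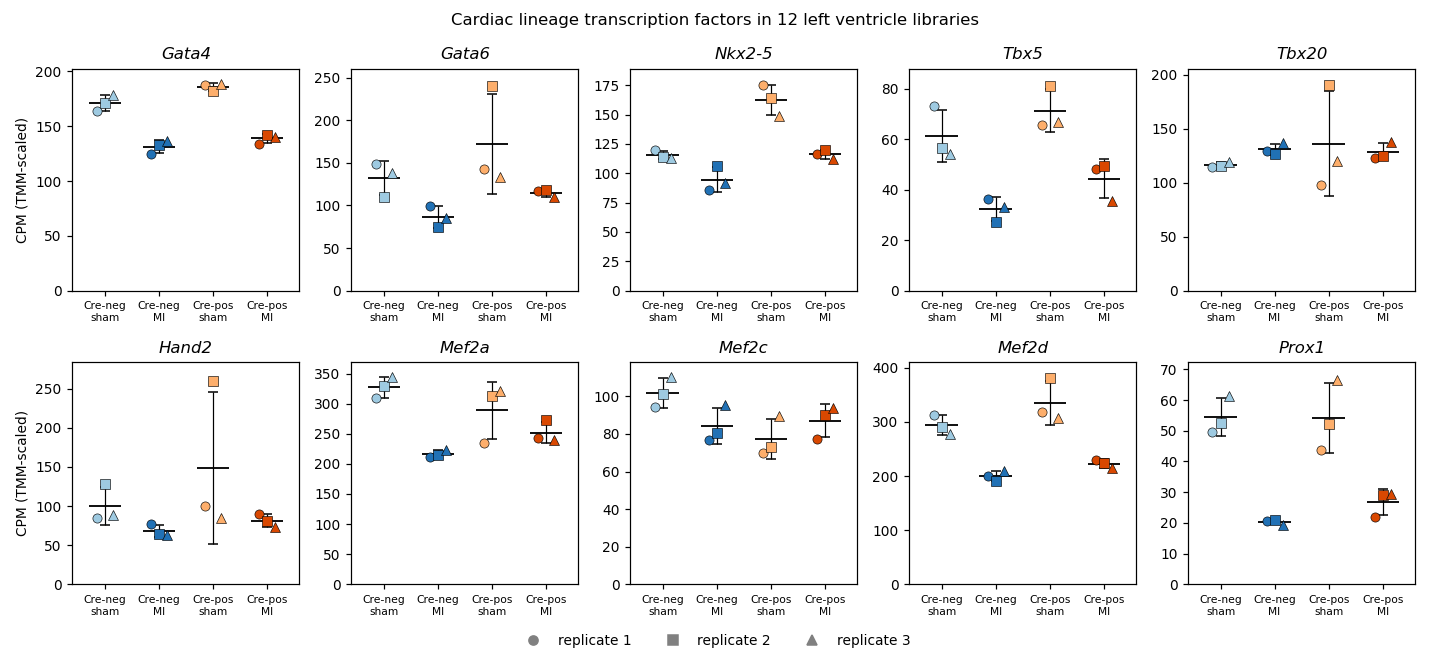
CPM, scaled by TMM, of the 10 factors in the 12 libraries (symbols mark replicate numbers, lines the group mean, bars 1 SD). For Gata4, Tbx5, Mef2d and Prox1 all 6 MI libraries lie below all 6 sham libraries.

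**Figure D4:**
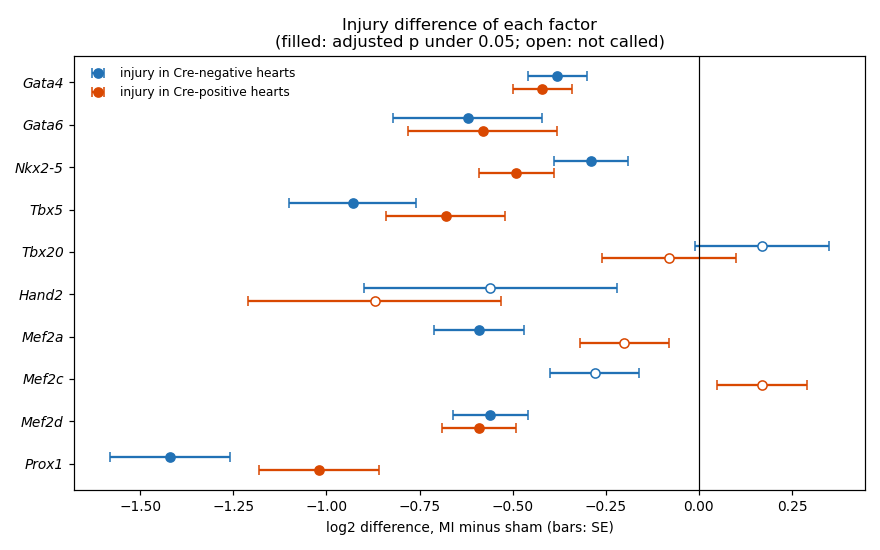
Log2 difference, MI minus sham, of each factor in Cre-negative (blue) and Cre-positive (orange) hearts with its SE. Filled points passed the test; Prox1 has the lowest value in both genotypes (-1.42 and -1.02), and Tbx20 passed in neither.

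Among the GATA factors, Gata4 (Entrez 14463, chr14:63198914-63271712), a regulator of muscle cell growth and survival, gave the tightest result. Its libraries ranged from 163.6 to 188.8 CPM after sham and from 124.9 to 142.4 CPM after MI, with no overlap over the 6 libraries of each surgery. It fell by 0.38 on the log2 scale in Cre-negative hearts (SE 0.08, adjusted p = 0.00127) and by 0.42 in Cre-positive hearts (SE 0.08, adjusted p = 0.000863). With library totals in place of TMM factors the values were -0.14 (adjusted p = 0.158) and -0.19 (adjusted p = 0.0608). Gata6 (Entrez 14465), which overlaps with Gata4 in function, varied more. It fell from 132.6 ± 19.8 to 86.3 ± 12.9 CPM in Cre-negative hearts (log2 difference -0.62, SE 0.20, adjusted p = 0.0208). In Cre-positive hearts the sham libraries had 142.5, 240.0 and 133.6 CPM and the MI libraries 117.1, 118.1 and 109.8 CPM. The groups did not overlap, but the sham mean was drawn up by replicate 2. The log2 difference of -0.58 (SE 0.20, adjusted p = 0.0325) was -0.30 without that library (adjusted p = 0.0935). The call was also lost without Cre-positive MI replicate 1 (adjusted p = 0.0705), 2 (0.0659) or 3 (0.0917). In Cre-negative hearts it was lost without sham replicate 1 (0.0596), MI replicate 2 (0.0808) or MI replicate 3 (0.0551).

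Nkx2-5 (Entrez 18091, chr17:26838664-26844988), the homeobox factor that marks the earliest heart muscle precursors, fell in both genotypes. Its sham levels did not overlap between genotypes, but that difference was not called by edgeR (adjusted p = 0.206). Cre-negative sham libraries had 119.5, 114.1 and 113.1 CPM and Cre-negative MI libraries 85.9, 106.3 and 91.8 CPM. Cre-positive sham libraries had 175.0, 164.0 and 149.0 CPM and Cre-positive MI libraries 116.6, 120.1 and 112.0 CPM. Values of Cre-positive MI hearts overlapped those of Cre-negative sham hearts. The log2 differences after MI were -0.29 (SE 0.10, adjusted p = 0.0243) and -0.49 (SE 0.10, adjusted p = 0.00149). The Cre-negative call was lost with library totals (-0.04, adjusted p = 0.734) and without sham replicate 1 (0.0655), MI replicate 1 (0.0977) or MI replicate 3 (0.0766). The difference between the 2 injury responses was -0.20 (95% interval -0.49 to 0.10, adjusted p = 0.719).

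The pair of T-box factors parted after MI. Tbx5 (Entrez 21388, chr5:119796514-119885220), an activator needed for contractile and conduction genes, had 73.3, 56.6 and 54.2 CPM in Cre-negative sham and 36.4, 27.0 and 33.3 CPM in Cre-negative MI libraries. In Cre-positive hearts it had 65.6, 81.1 and 67.0 CPM after sham and 48.2, 49.4 and 35.4 CPM after MI. All 6 MI libraries were below all 6 sham libraries. Tbx5 fell by 47.5% in Cre-negative hearts (log2 difference -0.93, SE 0.17, adjusted p = 0.000523) and fell by 37.8% in Cre-positive hearts (-0.68, SE 0.16, adjusted p = 0.00497). Tbx20 (Entrez 57246, chr9:24720812-24774303), which maintains adult muscle cell function and can repress as well as activate, had 114.1, 115.6 and 119.5 CPM in Cre-negative sham and 129.1, 127.0 and 136.9 CPM in Cre-negative MI libraries. Those groups did not overlap, with MI above sham, but the difference did not pass the test (log2 0.17, SE 0.18, adjusted p = 0.457). Cre-positive sham libraries had 97.5, 190.8 and 120.1 CPM and MI libraries 123.3, 124.7 and 137.5 CPM. The log2 difference there was -0.08 (SE 0.18, adjusted p = 0.741), and it was 0.21 without Cre-positive sham replicate 2 (adjusted p = 0.0942) and 0.15 with library totals.

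Hand2 (Entrez 15111, chr8:57320983-57324517), a regulator of ventricular growth that is also expressed in fibroblasts, was the factor that varied most among the sham hearts. It had 84.2, 128.5 and 88.4 CPM in Cre-negative sham and 76.9, 64.1 and 63.5 CPM in Cre-negative MI libraries. Cre-positive sham libraries had 100.4, 259.9 and 84.9 CPM and Cre-positive MI libraries 90.3, 80.4 and 73.7 CPM. In Cre-negative hearts the groups did not overlap, and in Cre-positive hearts they did. The log2 differences were -0.56 (SE 0.34, adjusted p = 0.18) and -0.87 (SE 0.34, adjusted p = 0.0527), and neither passed the test. The Cre-positive difference was -0.22 without Cre-positive sham replicate 2 (adjusted p = 0.294), while it was called with RLE size factors (-0.89, adjusted p = 0.0433), with no filter on low counts (-0.87, adjusted p = 0.0476) and by DESeq2 (-0.89, adjusted p = 0.0186), all with that library in. It was also called without Cre-positive sham replicate 1 (-1.08, adjusted p = 0.0232) or 3 (-1.16, adjusted p = 0.0102), or Cre-negative sham replicate 2 (-0.88, adjusted p = 0.047). The spread is estimated over all 4 groups, and without Cre-positive sham replicate 2 Hand2 was called in Cre-negative hearts (-0.58, adjusted p = 0.00542). It was also called there with only the 2 groups compared (-0.55, edgeR adjusted p = 0.0129). In the authors' deposited tables the log2 fold changes were -0.58 (adjusted p = 0.00113) and -0.90 (adjusted p = 0.0595).

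Of the MEF2 factors, Mef2d was called lower in both genotypes, Mef2a in Cre-negative hearts, and Mef2c in neither, though alternative fits called Mef2c lower in Cre-negative hearts. Mef2d (Entrez 17261, chr3:88141941-88172091), linked in the adult heart to stress signalling, ranged from 277.5 to 381.2 CPM over the sham and from 190.7 to 229.9 CPM over the MI libraries, without overlap. Its log2 differences were -0.56 (SE 0.10, adjusted p = 0.000532) and -0.59 (SE 0.10, adjusted p = 0.000509). Mef2a (Entrez 17258, chr7:67231163-67376456), the main MEF2 form of adult heart muscle, had 309.1, 328.8 and 343.6 CPM in Cre-negative sham and 211.9, 214.8 and 223.4 CPM in Cre-negative MI libraries, groups far apart (log2 difference -0.59, SE 0.12, adjusted p = 0.00107). In Cre-positive hearts it had 234.7, 312.5 and 320.4 CPM after sham and 243.7, 272.3 and 239.5 CPM after MI. Those groups overlapped, and sham replicate 1 was the lowest of the 6. The log2 difference there was -0.20 (SE 0.12, adjusted p = 0.186), changing sign to 0.03 with library totals, and -0.33 (adjusted p = 0.0137) without sham replicate 1. Mef2c (Entrez 17260, chr13:83504017-83667079), needed for the early heart tube, had 94.1, 101.2 and 110.3 CPM in Cre-negative sham and 76.6, 80.7 and 95.3 CPM in Cre-negative MI libraries. Cre-positive sham libraries had 69.6, 72.8 and 89.3 CPM and MI libraries 77.4, 90.0 and 93.8 CPM. Cre-positive sham hearts were thus the lowest of the 4 groups by their mean, 77.3 ± 10.6 CPM. Its log2 differences after MI were -0.28 (SE 0.12, adjusted p = 0.079) and 0.17 (SE 0.12, adjusted p = 0.277). The first was called without Cre-negative MI replicate 3 (adjusted p = 0.0389), Cre-positive sham replicate 2 (0.0394) or Cre-positive sham replicate 3 (0.0389). It was also called with only the 2 groups compared (-0.27, edgeR adjusted p = 0.0422) and with a replicate block (edgeR adjusted p = 0.0143). The authors' deposited table gave -0.30 for Cre-negative hearts (adjusted p = 0.0324). The second was called as higher with library totals (0.40, adjusted p = 0.0178).

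The deposited files give for each gene a length averaged over its transcripts, weighted by their abundance. For Mef2a, with 7 transcripts, this length was 5551.4 to 5556.5 bases over the sham and 5545.0 to 5550.3 bases over the MI libraries, without overlap. Among the 5130 genes whose length varied, 4.39% showed no overlap. The other factors with more than 1 transcript (Gata4, Tbx20, Mef2c and Mef2d) overlapped. The shift in Mef2a was a few bases in the whole length, and the files do not say which transcripts moved.

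Prox1 (Entrez 19130, chr1:190118035-190170827), with 1 of its promoter windows printed above, showed the largest fall. This homeobox factor sets lymphatic endothelial identity and, in heart muscle, holds fast skeletal muscle genes down. It had 49.7, 52.4 and 61.4 CPM in Cre-negative sham and 20.6, 21.0 and 19.4 CPM in Cre-negative MI libraries. In Cre-positive hearts it had 43.7, 52.2 and 66.5 CPM after sham and 21.9, 29.1 and 29.3 CPM after MI. Every MI library was far below every sham library. It fell by 62.7% in Cre-negative hearts (log2 difference -1.42, SE 0.16, adjusted p = 1.51e-05) and fell by 50.5% in Cre-positive hearts (-1.02, SE 0.16, adjusted p = 0.000283). Of 4 fast skeletal genes that could be tested, 3 rose in both genotypes. Of all genes, 29.9% and 25.7% were called higher. The remaining gene, Atp2a1, was not called (-0.64, SE 0.51 and -0.23, SE 0.47). Tnnt3, fast skeletal troponin T, had 0.493 to 0.799 CPM after sham and 10.1 to 22.9 CPM after MI in Cre-negative hearts, a rise (log2 difference 4.69, SE 0.46). Myl1, a fast myosin light chain, and Tnni2, fast troponin I, rose by 0.92 (SE 0.26) and 1.08 (SE 0.41) in Cre-negative hearts. Myl1 libraries overlapped there, with 22.67 to 49.22 CPM after sham and 48.93 to 70.31 CPM after MI. Tnni2 was low, with 0.699 to 1.281 CPM after sham and 1.436 to 3.135 CPM after MI. A link of these genes to the fall of Prox1 was not tested. Of 7 lymphatic markers, 2 rose and 1 fell in each genotype, with a median of -0.05 in Cre-negative and 0.26 in Cre-positive hearts. In Cre-negative hearts Pdpn, which activated fibroblasts also carry, rose (2.73, SE 0.14) and Reln, a glycoprotein made by lymphatic endothelium, fell (-0.84, SE 0.23). Flt4 was called higher in Cre-negative hearts (0.42, SE 0.15) and not in Cre-positive hearts (0.20, SE 0.15). Sema3d was called higher in Cre-positive hearts (1.21, SE 0.26) and not in Cre-negative hearts (0.54, SE 0.25). The part of lymphatic vessels in the Prox1 result was not tested.

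Over the 12 libraries 4 of the 10 factors (Gata4, Tbx5, Mef2d and Prox1) showed no overlap of sham and MI, near the 40.5% of all genes. All 4 were lower after MI, where 16.5% of all genes were lower without overlap. Of the 5542 genes without overlap, 2261 were lower. This separation is that of CPM scaled by TMM. In FPKM, Gata4 overlapped (43.47 in Cre-positive MI replicate 3, 43.2 in Cre-negative sham replicate 1). Tbx5 did too (13.03 in Cre-positive MI replicate 1, 12.65 in Cre-negative sham replicate 3). Markers of muscle moved with the factors. Of 20 cardiomyocyte markers 17 fell in Cre-negative (median log2 difference -1.06) and 13 in Cre-positive hearts (median -0.73), so the medians of the factors, -0.56 and -0.53, were nearer 0. Myofibroblast markers rose (10 of 10) and macrophage markers rose (12 of 12) in both genotypes, with medians of 3.13 and 2.57 in Cre-negative hearts. The part of these shifts in the factors' differences was not tested.

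Each factor was next set against the mean log2 level of the 20 cardiomyocyte markers of the same library, which itself moved by -0.96 in Cre-negative and -0.64 in Cre-positive hearts. With both genotypes together, an exact two-sided permutation test within genotype could not give a p below 0.005, and p-values were adjusted over the 10 factors. Relative to muscle markers Tbx20 (0.87, adjusted p = 0.03), Mef2c (0.75, adjusted p = 0.0167), Nkx2-5 (0.41, adjusted p = 0.0333), Mef2a (0.41, adjusted p = 0.0167) and Gata4 (0.40, adjusted p = 0.0167) were higher after MI by this exact permutation test. Prox1 was lower (-0.41, exact permutation test, adjusted p = 0.03). Tbx5 was close to the markers (-0.01, exact permutation test, adjusted p = 0.97), and Gata6 (0.22), Mef2d (0.23) and Hand2 (0.19) did not pass. No factor was called without Cre-positive MI replicate 1, where Gata4, Tbx20, Mef2a and Mef2c stood at an adjusted p of 0.05, Prox1 at 0.06 and Nkx2-5 at 0.0667 (exact permutation test). These calls also changed with the reference. One other reference was the median log2 level over 32 reported target genes in each library, which moved by -0.20 and 0.00. It follows the genes of middle level in a library. The median of the single-gene differences of the same 32 genes was -0.85 and -0.41. Against this median level Mef2c (0.05, adjusted p = 0.525), Tbx20 (0.17, adjusted p = 0.294) and Nkx2-5 (-0.29, adjusted p = 0.121) did not pass the exact permutation test. Gata4 (-0.30, adjusted p = 0.02), Mef2a (-0.29, adjusted p = 0.0125), Mef2d (-0.47, adjusted p = 0.0125), Tbx5 (-0.71, adjusted p = 0.0125) and Prox1 (-1.11, adjusted p = 0.0125) were lower by the exact permutation test, so Gata4 and Mef2a were called in opposite directions against the 2 references. Prox1 was lower against both. Against the mean of the same 32 genes, a reference chosen after the data were seen, which moved by -0.57 and -0.11, Mef2c was at 0.29 and Prox1 at -0.87 (exact permutation test, adjusted p = 0.025 for each), and the other 8 factors did not pass.

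Ratios of related factors within a library do not depend on its scaling. The ratio of Tbx5 to Tbx20 was lower after MI by 0.88 on the log2 scale, a 1.84-fold shift (difference -0.88, exact permutation test within genotype, adjusted p = 0.0125 over 5 ratios). In Cre-negative hearts it was -0.64, -1.03 and -1.14 after sham and -1.83, -2.23 and -2.04 after MI. In Cre-positive hearts it was -0.57, -1.23 and -0.84 after sham and -1.35, -1.34 and -1.96 after MI. All 6 MI libraries lay below all 6 sham libraries. Among MEF2 genes, Mef2c gained on both relatives, with a Mef2a to Mef2c difference of -0.34 (exact permutation test, adjusted p = 0.0125) and a Mef2c to Mef2d difference of 0.52 (exact permutation test, adjusted p = 0.0167). Within each genotype the MI and sham means differed in the same direction for these 3 ratios. The ratios of Mef2a to Mef2d (0.18, exact permutation test, adjusted p = 0.225) and Gata4 to Gata6 (0.17, exact permutation test, adjusted p = 0.355) did not pass. Between genotypes no ratio passed (lowest adjusted p = 0.125 by the exact permutation test). The plot of paralog ratios shows the 5 pairs.

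**Figure D5:**
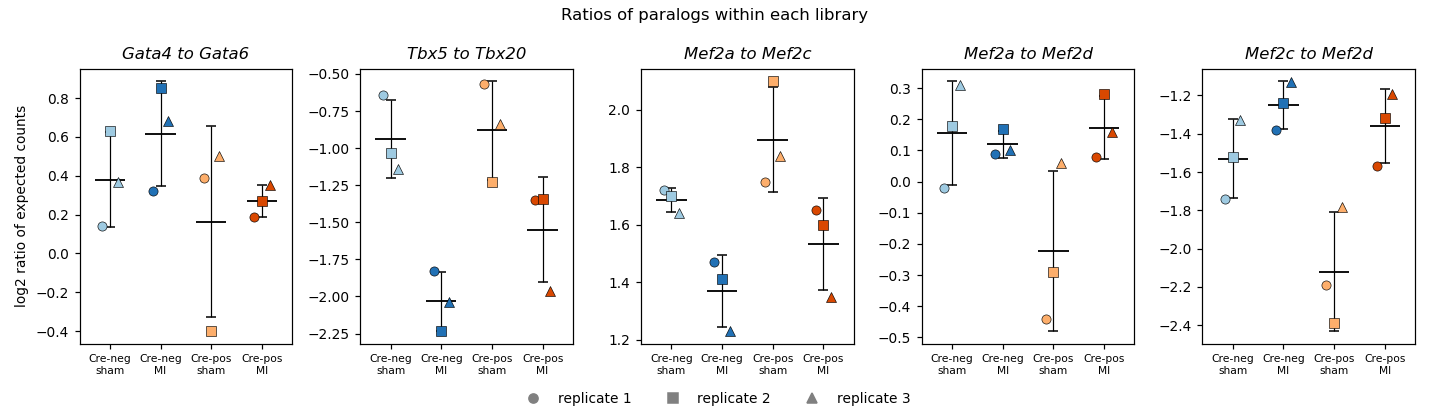
Log2 ratio of expected counts of 5 pairs of related factors in each library (symbols mark replicate numbers, lines the mean, bars 1 SD; the vertical axes differ and do not start at 0). For Tbx5 to Tbx20 the 6 MI libraries lie at -2.23 to -1.34 and the 6 sham libraries at -1.23 to -0.57.

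The comparison of genotypes set Cre-positive against Cre-negative hearts. These differed in Yap deletion directed at periostin-expressing cells, in the MerCreMer copy at the Postn locus and, by Y-linked reads, in sex balance. No group carried MerCreMer without floxed Yap, so the parts of these differences cannot be told apart. After MI, 0 of the 10 were called by edgeR and 0 by DESeq2, and 0% of all genes were called by edgeR (1728 genes and 3 of the 10 factors at an unadjusted p under 0.05, and 167 genes by DESeq2). The estimates were above 0, Cre-positive over Cre-negative, for 9 of 10 factors, including Mef2c, whose 0.05 changed sign to -0.02 with library totals. Their median was 0.24 beside -0.007 for all genes. Libraries did not overlap for Gata6, Nkx2-5, Mef2a, Mef2d and Prox1, 5 of 10 against 27.2% of all genes. The values furthest from 0 were Tbx5 at 0.46 (95% interval 0.10 to 0.82, adjusted p = 0.299), Gata6 at 0.41 (-0.02 to 0.85, adjusted p = 0.421) and Prox1 at 0.39 (0.05 to 0.74, adjusted p = 0.349). Nkx2-5 was at 0.30 (0.09 to 0.51, adjusted p = 0.283). In the authors' deposited table Gata6 was the factor with an adjusted p under 0.05 (log2 fold change 0.43, adjusted p = 0.0156). Among all genes listed there, 763 had an adjusted p under 0.05. Cardiomyocyte markers were also nearer sham levels in Cre-positive MI hearts, with a summed level of 93791 to 111468 against 65907 to 88859 CPM and a median log2 difference of 0.37 with 0 of 20 called. The part of muscle content in these differences was not tested.

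After sham surgery 0 of the 10 factors were called, against 0.0512% of all genes. At an unadjusted edgeR p under 0.05 stood 2 of the 10 factors and 1125 of the 13678 genes tested. Nkx2-5 was 1.41-fold higher in Cre-positive hearts, 149.0 to 175.0 against 113.1 to 119.5 CPM with no overlap (log2 difference 0.49, SE 0.10, adjusted p = 0.206). DESeq2 called it (0.51, adjusted p = 0.00105), the only one of the 10 that DESeq2 called in this comparison, and the authors' deposited table gave 0.49 with an adjusted p of 0.138. Mef2c was lower, 69.6 to 89.3 against 94.1 to 110.3 CPM with no overlap (log2 difference -0.40, SE 0.12, adjusted p = 0.582). Gata4 libraries did not overlap either (0.12, adjusted p = 0.666), making 3 of 10 against 10.6% of all genes. Hand2 (0.56, adjusted p = 0.647) and Tbx20 (0.23, adjusted p = 0.732) were at -0.09 and -0.08 without Cre-positive sham replicate 2.

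Between the 2 injury responses the difference was called for 0 of the 10 factors and for 0% of all genes by edgeR (1116 genes at an unadjusted p under 0.05, 33 genes and 0 factors by DESeq2). The factors furthest from 0 were Mef2c at 0.45 (95% interval 0.07 to 0.83, adjusted p = 0.597), Prox1 at 0.41 (-0.08 to 0.89, adjusted p = 0.649) and Mef2a at 0.39 (0.03 to 0.76, adjusted p = 0.597). For Gata4 the interval was -0.28 to 0.20 and for Mef2d -0.34 to 0.28.

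Genes that work with the factors were read from lists chosen with earlier results of these data known, and their counts stand beside the 24.4% of all genes called lower and 29.9% higher in Cre-negative and the 19.5% lower and 25.7% higher in Cre-positive hearts. Of 27 cofactors and regulators, 5 rose and 13 fell in Cre-negative hearts (median -0.42), and 3 rose and 13 fell in Cre-positive hearts (median -0.34). Hdac4, a histone deacetylase that binds and represses MEF2, fell (-0.91, SE 0.10 and -0.55, SE 0.10). Mapk7, the kinase ERK5 that phosphorylates MEF2C, rose (1.38, SE 0.12 and 0.94, SE 0.12), as did Nfatc4, a calcineurin-responsive partner of GATA4 (1.57, SE 0.17 and 1.37, SE 0.17), and Mkl1, an SRF cofactor (1.10, SE 0.15 and 0.83, SE 0.15). Of 16 other cardiac developmental factors that could be tested, 5 rose and 7 fell in Cre-negative hearts and 4 rose and 3 fell in Cre-positive hearts, where both counts are near the shares of all genes. Hopx, a homeodomain protein that restrains SRF, fell (-1.44, SE 0.12 and -1.08, SE 0.12), and so did Hey2, a Notch target of the ventricle (-1.15, SE 0.14 and -0.46, SE 0.14). Tbx18, an epicardial and mural cell factor, rose (1.29, SE 0.18 and 1.32, SE 0.18). None of the genes of these lists was called between genotypes.

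Of 32 genes reported as targets of the 10 factors, 4 rose and 22 fell in Cre-negative hearts (median -0.85), and 4 rose and 15 fell in Cre-positive hearts (median -0.41). Mylk3, the cardiac myosin light chain kinase, fell (-1.38, SE 0.15 and -0.83, SE 0.14), as did Pln, the inhibitor of the calcium pump (-1.32, SE 0.15 and -0.71, SE 0.15), Tnni3, cardiac troponin I (-1.37, SE 0.16 and -0.88, SE 0.16), and Cacna1c, the L-type calcium channel (-1.06, SE 0.13 and -0.55, SE 0.13). Nppa, atrial natriuretic peptide, went the other way (2.55, SE 0.36 and 1.93, SE 0.36), as did Nppb, its ventricular relative (1.71, SE 0.29 and 0.81, SE 0.29). Both are targets of GATA4 and Nkx2-5, which fell. The targets and the cardiomyocyte markers share genes, so they are not separate evidence.

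By the mean absolute difference between centred log2 CPM profiles over the 12 libraries, Gata4 and Mef2d were each other's nearest factor (0.112), and Mef2a was nearest to Gata4 (0.113). Prox1 was furthest from the rest, its nearest factor being Tbx5 at 0.310. Among the 9513 other genes compared, Tbx5 was nearest to Cry2 (0.073), Prox1 to Ric8b (0.136) and then Pln (0.142), Gata4 to Mrps18a (0.035), Hand2 to Cyp4b1 (0.123), Tbx20 to Hnrnpu (0.055) and Mef2a to Oxr1 (0.053). For comparison, the mean absolute deviation of a factor from its own mean was 0.605 for Prox1, 0.405 for Tbx5, 0.201 for Gata4 and 0.144 for Tbx20. The profiles share the libraries, their depth and the sham to MI difference, and they carry no test.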

How the data were processed

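Left ventricle RNA was sequenced in 12 libraries. The submitters' processing notes name Bowtie2 2.2.5, RSEM 1.2.12 and the genome build mm10. For each library the authors deposited, per the file headers, RSEM expected counts, FPKM values and a transcript length per gene, and 4 comparison tables with log2 fold changes, p-values and adjusted p-values. Genes not listed in a library were set to 0. Depth was 10257675 to 15176286 expected counts per library, and counting error is only a part of the spread between replicates.

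Expected counts were rounded and analysed in R 4.3.3 with edgeR 4.0.16: filterByExpr (minimum count 10, 13678 genes kept, 3793 removed), TMM factors, and the quasi-likelihood test with 1 coefficient per group over all 12 libraries (8 residual and 4.16 prior degrees of freedom). The Benjamini-Hochberg adjustment of p-values ran over all genes tested in each contrast, and a call is an adjusted p under 0.05. The 95% intervals are unadjusted. CPM are scaled by TMM and FPKM are as deposited. Ratios and levels relative to marker genes were tested by exact permutation over samples within genotype or surgery (400 arrangements, smallest p 0.005). The procedure was tested on simulated data.

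Alternatives were RLE size factors, library totals, no filter, a replicate block, a term for Y-linked reads, the 2 groups alone, leaving out each library, DESeq2 1.42.0, limma 3.58.1 on log2(FPKM + 1), and other reference genes. All 10 factors are described. From each other list, up to 4 tested genes with the smallest p after MI in Cre-negative hearts are named, plus up to 2 called against the list's median. The members and lists were chosen with earlier results of these data known. Positions and promoter windows are from RefSeq, GRCm38.p6.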

Additional observations from a re-analysis of the deposited data

How the results depend on the processing

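Library totals were a scaling chosen after the data were seen. With them, and with limma on log2(FPKM + 1), 4 factors were called after MI in Cre-negative hearts instead of 7. Leaving out 1 library gave 5 to 9, and only the 2 groups compared gave 9, with Hand2 and Mef2c added. In Cre-positive hearts the counts of factors called stayed between 5 and 8. Library totals and limma turned Tbx20 in Cre-positive hearts (0.15 and 0.19, -0.27 to 0.21 leaving out 1 library), Mef2a in Cre-positive hearts (0.03 and 0.04) and Mef2c between genotypes after MI (-0.02 and -0.02; -0.03 with a term for Y-linked reads; -0.02 to 0.15 leaving out 1 library). Leaving out 1 library also turned Tbx20 between genotypes after MI (-0.08 to 0.01), and after sham Tbx20 (-0.08 to 0.41), Hand2 (-0.09 to 0.85) and Prox1 (-0.17 to 0.11; 0.0002 by DESeq2). In the difference of injury responses it turned Gata6 (-0.11 to 0.34), Tbx20 (-0.42 to 0.06), Hand2 (-0.58 to 0.35) and Mef2d (-0.09 to 0.06). The cause was not tested.

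Genes called between genotypes after MI were 0, but 1 with only the 2 groups compared, 0 to 3 leaving out 1 library (3 without Cre-positive sham replicate 2) and 167 by DESeq2. After sham they were 7, but 0 with only the 2 groups, 3 to 8 leaving out 1 library (3 without Cre-negative sham replicate 1) and 37 by DESeq2, which called 1 factor, Nkx2-5. For the difference of responses they were 0, but 2 with no filter, 0 to 1 leaving out 1 library (1 without Cre-negative sham replicate 2) and 33 by DESeq2.

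Relative to the median of reported target genes instead of the mean of cardiomyocyte markers, the injury values were 0.05 for Mef2c, 0.17 for Tbx20 and -0.29 for Nkx2-5, which lost their calls, -0.30 for Gata4 and -0.29 for Mef2a, which were called lower instead of higher, -0.71 for Tbx5 and -0.47 for Mef2d, which became calls, and -0.47 for Gata6 and -0.51 for Hand2, which were not called. Relative to their mean, a reference chosen after the data were seen, they were -0.06 for Gata4, -0.24 for Gata6, -0.05 for Nkx2-5, 0.41 for Tbx20, -0.27 for Hand2, -0.05 for Mef2a and -0.23 for Mef2d. Leaving out 1 library gave 0.36 to 0.44 for Gata4, 0.12 to 0.39 for Gata6, 0.35 to 0.46 for Nkx2-5, -0.10 to 0.07 for Tbx5, 0.75 to 1.04 for Tbx20, 0.32 to 0.48 for Mef2a, 0.70 to 0.79 for Mef2c, 0.17 to 0.31 for Mef2d and -0.50 to -0.36 for Prox1. An adjusted p of exactly 0.05 was not a call. Factors called were 6, but 0 without Cre-positive MI replicate 1, 4 without Cre-positive sham replicate 3 (Nkx2-5 and Prox1 lost) or Cre-negative sham replicate 3 (the same pair), and 8 without Cre-positive sham replicate 2 (Gata6 and Mef2d gained). Prox1 was also not called without Cre-negative sham replicate 2 or Cre-negative MI replicate 2 or 3. The ratio of Mef2a to Mef2c between genotypes was 0.14 to 0.24 and was called without Cre-positive MI replicate 3. The 5 injury ratios kept their direction and call in every refit made.

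Replicate numbers did not pair the libraries: 3 of 18 same-number pairs had a correlation over 0.1 (range -0.122 to 0.278), and 5 of 12 libraries correlated best with their own number. With the replicate block, 7370 genes and 8 factors were called in Cre-negative and 6150 genes and 5 factors in Cre-positive hearts after MI (Mef2c at an adjusted p of 0.0143, Gata6 in Cre-positive hearts at 0.0504). Between genotypes the block called 0 genes after MI, 7 after sham and 0 for the difference of responses.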
